A study of Mus musculus with 6 samples.

Results

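The 10 immediate early genes of B cell activation Fos, Fosb, Jun, Junb, Egr1, Egr2, Nr4a1, Ier2, Dusp1 and Cd69 were read in splenic B cells of wild-type and Cd37-deficient mice. They were chosen by name, with earlier results of these data known. Each was represented by 1 probe set that names no other gene, so the 10 genes stand among 19935 genes measured on the array. RNA came from cells of the C57BL/6J background that carry B220 and lack CD43, with 3 WT mice (genotype Wild-Type) and 3 CD37KO mice (genotype Cd37 -/-), all described as littermates. The labels give an age of 3 months and the study's methods an older one for mice used for spleens, no treatment was given, mice of both sexes were used in the study, and each mouse was measured on 1 array. The spleens were dissociated, red cells were lysed, lymphocytes were separated on a density gradient and cells with CD43 were removed with magnetic beads, so every sample passed through handling of some length before its RNA was taken.

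Immediate early genes are transcribed within minutes of a signal, without new protein synthesis, and their RNAs are short-lived. In B cells, binding of antigen to its receptor activates ERK, calcium and protein kinase C signals, which act through promoter-bound factors such as SRF and CREB. The same genes also respond to growth factors, to cell stress and to the dissociation of a tissue. Their products include the FOS and JUN proteins, which pair to form the transcription factor AP-1, the zinc finger factors EGR1 and EGR2, the nuclear receptor NR4A1, the phosphatase DUSP1, which switches MAP kinases off, and CD69, a surface protein that holds lymphocytes in tissue.

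None of the 10 genes passed the test between WT and CD37KO. With limma, 0 of 10 had an adjusted p under 0.05, as 0.0552% of all genes had, and 0 of 10 had an unadjusted p under 0.05, as 5.95% of all genes had. Ordinary least squares also gave 0 of 10 at the adjusted threshold, with the smallest unadjusted p of that fit, 0.0751, for Cd69. All 10 genes were far above background in all 6 arrays. Of the 10 differences 7 were above 0, as were those of 5625 of the 9874 genes above background in all arrays. Background was a log2 level of 5.77, set so that 95% of 1015 olfactory receptor genes had a lower mean, and the lowest array of any member lay 2.70 above it.

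The adjusted threshold was passed by 11 genes in all, among them Cd37, the deleted gene (Entrez Gene 12493). Its log2 level was 11.99, 11.83 and 12.08 in WT replicates 1 to 3 and 8.15, 8.17 and 8.17 in CD37KO replicates 1 to 3, as the labels require. Of the B cell markers, 15 of 15 measured were above background in every array, and their mean log2 level ran from 11.44 to 11.52. Of 13 T cell and NK cell genes measured, 5 were above background in every array (Cd3e, Cd4, Lat, Il7r and Nkg7, with a mean log2 level of 6.44 to 6.67 in WT and 6.45 to 6.54 in CD37KO arrays), while Cd3d and Cd3g of the T cell receptor complex were below background in every array. Some markers of other cells were present. The mean log2 level of the 15 macrophage and monocyte genes above background, of 18 measured, ran from 8.87 to 9.66 in WT and from 8.48 to 9.84 in CD37KO arrays. That of the 7 neutrophil genes above background, of 18 measured, ran from 7.03 to 7.35 in WT and from 7.83 to 9.39 in CD37KO arrays. Fewer cells of one type and less RNA per cell cannot be told apart in such samples. No array duplicated another.

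Upstream sequence was available for 7 of the 10 members, and is shown for 4 of them, picked by name. All 4 hold the letters TGACG described below. Fosb, Jun and Junb also had a window and are not shown, and that of Jun holds no TGACG. The windows are the 250 bases before an annotated RefSeq start in GRCm38.p6, written 5′ to 3′ on the gene's strand. Egr1, Ier2 and Cd69 were not among the windows. Capitals mark the letters TGACG, the core of a cAMP response element bound by CREB and its relatives, on either strand (CGTCA), with TATAAA also in capitals for Fos and the CArG box, the site of SRF, also in capitals for Egr2.

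Fos, chr12:85473640-85473889, plus strand: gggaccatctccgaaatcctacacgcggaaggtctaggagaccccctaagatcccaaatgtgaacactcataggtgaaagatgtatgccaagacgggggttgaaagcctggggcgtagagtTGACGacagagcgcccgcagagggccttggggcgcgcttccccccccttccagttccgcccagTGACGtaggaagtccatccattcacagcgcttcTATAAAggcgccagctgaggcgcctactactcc

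Egr2, chr10:67537619-67537868, plus strand: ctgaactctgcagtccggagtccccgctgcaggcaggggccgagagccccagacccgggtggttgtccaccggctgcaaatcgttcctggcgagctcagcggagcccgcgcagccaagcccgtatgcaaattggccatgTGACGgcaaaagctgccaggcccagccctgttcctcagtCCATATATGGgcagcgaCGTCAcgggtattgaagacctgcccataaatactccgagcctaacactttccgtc

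Nr4a1, chr15:101266596-101266845, plus strand: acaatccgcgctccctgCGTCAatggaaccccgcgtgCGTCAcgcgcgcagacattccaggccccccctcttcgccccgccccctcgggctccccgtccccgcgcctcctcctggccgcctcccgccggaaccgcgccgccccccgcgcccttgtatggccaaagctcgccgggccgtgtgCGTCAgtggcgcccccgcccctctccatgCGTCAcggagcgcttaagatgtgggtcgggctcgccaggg

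Dusp1, chr17:26508473-26508722, minus strand: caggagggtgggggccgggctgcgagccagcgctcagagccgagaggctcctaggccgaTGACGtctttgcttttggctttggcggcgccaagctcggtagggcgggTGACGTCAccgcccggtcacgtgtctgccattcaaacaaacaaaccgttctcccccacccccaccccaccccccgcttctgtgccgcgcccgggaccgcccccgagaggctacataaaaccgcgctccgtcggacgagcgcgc

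TGACG was found in 6 of the 7 members with a window, Jun being the exception, where 17.8% of 32851 RefSeq windows of this length hold it on either strand. Fos had it 66 and 129 bases before the start, with TATAAA 33 bases before it. Nr4a1 held it at 4 places, the nearest 40 bases before the start. In Dusp1 the full palindrome TGACGTCA lay 143 bases before the start, and such a palindrome, which holds TGACG on both strands, was in 1.55% of windows. A CArG box occurred in 1 of the 7 members with a window, Egr2, and in 1.47% of windows. Sequence further upstream was not searched, and Egr1, Ier2 and Cd69 could not be read. The absence of a match in a window therefore does not show that a gene lacks the site. A member was counted if any of its windows held the letters, whereas the percentages are shares of single windows. Egr2 has 5 annotated starts with a window each, and every other member with a window has 1. The window shown has its CArG box 72 bases before the start with TGACG on each side of it. The AP-1 site TGANTCA was in none of the 7 members and in 6.75% of windows, and the EGR site GCGNGGGCG was in Fosb and Nr4a1 and in 4.70% of windows, in each case on either strand. TATAAA was in Fos alone among the 7 members with a window and in 12.4% of windows on either strand. A match to these letters is a description of the window and does not show a bound factor.

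The FOS family members are the less stable partners of AP-1. Fos (Entrez Gene 14281) had a log2 level of 9.67, 9.54 and 9.79 in WT and of 9.76, 9.44 and 9.98 in CD37KO replicates 1 to 3. The CD37KO group held both the highest and the lowest array, so it enclosed the WT group. The difference, CD37KO minus WT, was 0.06 on the log2 scale (standard error, SE, 0.13, 95% interval -0.24 to 0.36, limma adjusted p = 0.937). The direction for Fos depended on single arrays, at -0.07 without CD37KO replicate 3 and 0.20 without CD37KO replicate 2.

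Fosb (Entrez Gene 14282), the relative of Fos, stood at 11.89, 11.90 and 12.03 in WT and at 11.78, 11.93 and 12.03 in CD37KO replicates 1 to 3. Replicate 3 was the highest of its group in both genotypes, and the groups overlapped. Its log2 difference was -0.03 (SE 0.080, 95% interval -0.21 to 0.16, limma adjusted p = 0.955), and it turned to 0.04 without CD37KO replicate 1. Fosb is the only member on chromosome 7 with Cd37, and it lies 421 measured genes away from it in the gene order of GRCm38.p6.

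The JUN proteins pair with FOS proteins or with each other. For Jun (Entrez Gene 16476) the log2 levels were 11.21, 11.20 and 11.36 in WT and 11.21, 11.17 and 11.60 in CD37KO replicates 1 to 3. CD37KO replicate 3 stood above the other arrays. Jun had a log2 difference of 0.07 (SE 0.12, 95% interval -0.20 to 0.33, limma adjusted p = 0.908), and of -0.07 without CD37KO replicate 3. Junb (Entrez Gene 16477), often a weaker activator than JUN, was at 8.86, 8.84 and 9.03 in WT and at 8.92, 8.92 and 9.20 in CD37KO replicates 1 to 3. WT replicate 3 lay above CD37KO replicates 1 and 2. The log2 difference of Junb, 0.10 (SE 0.096, 95% interval -0.12 to 0.32, limma adjusted p = 0.845), was the highest of the 10 and fell to 0.0097 when CD37KO replicate 3 was left out.

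**Figure D1:**
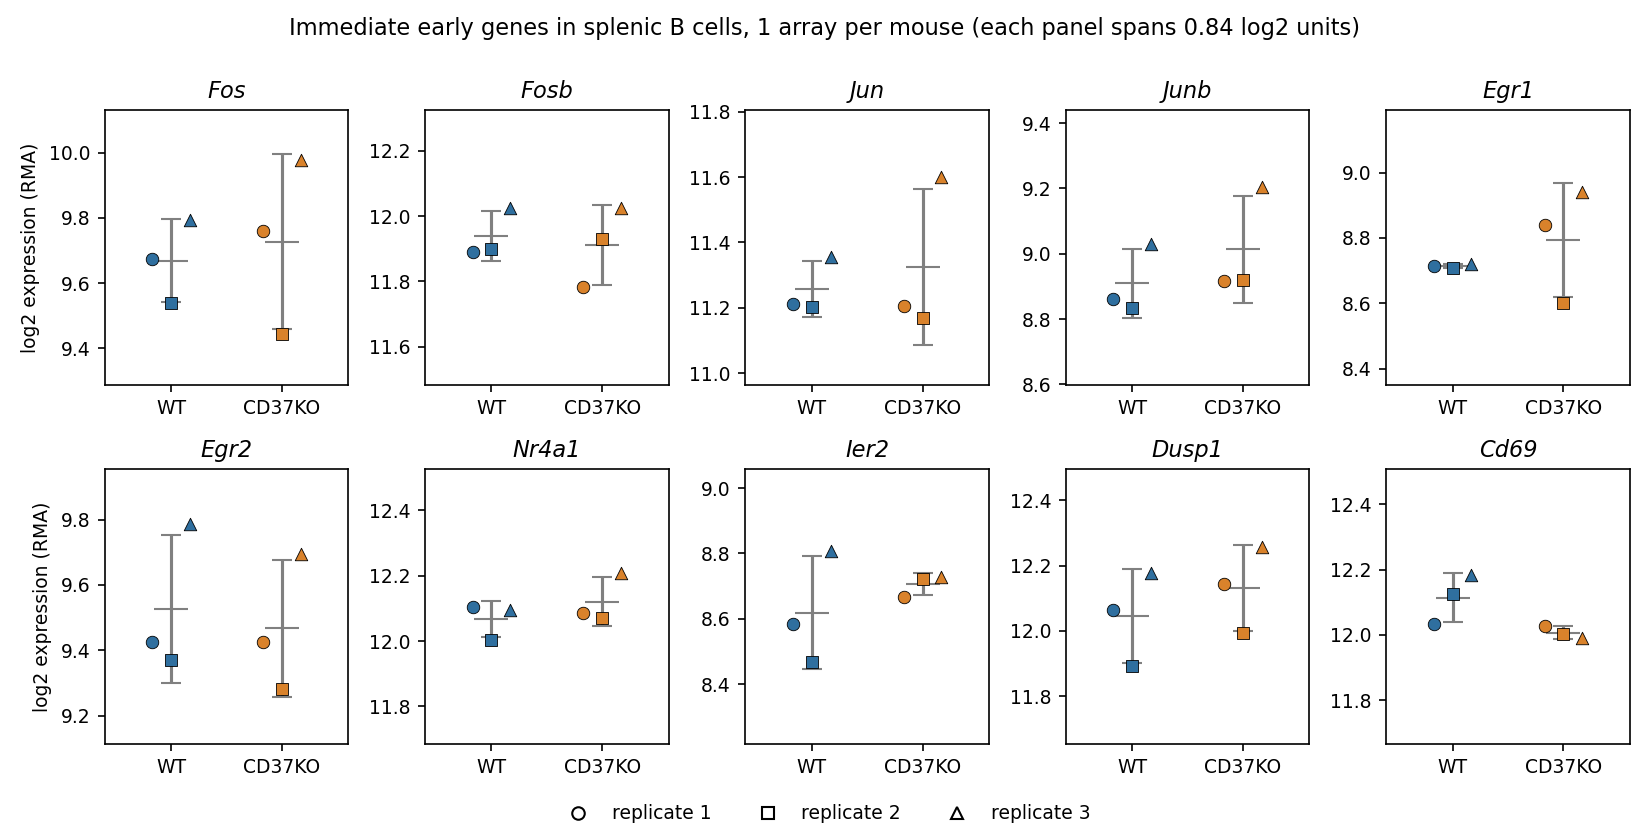
Log2 expression after RMA (vertical axis) of the 10 immediate early genes in the 3 WT (blue) and 3 CD37KO (orange) arrays, with replicates 1, 2 and 3 as circle, square and triangle and the mean and SD as grey bars. The triangles stand at the top of both groups for 8 genes, narrowly for Egr1 in WT and Ier2 in CD37KO. For Cd69 alone all CD37KO arrays lie below all WT arrays.

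Egr1 (Entrez Gene 13653) is a zinc finger factor induced through ERK. It was nearly constant in WT, with log2 levels of 8.71, 8.71 and 8.72, against 8.84, 8.60 and 8.94 in CD37KO replicates 1 to 3. The SD between mice was 0.0053 in WT and 0.17 in CD37KO, and 2 of the CD37KO arrays lay above the WT arrays and 1 below them. The log2 difference was 0.08 (SE 0.089, 95% interval -0.12 to 0.28, limma adjusted p = 0.863), and it was 0.0057 without CD37KO replicate 3 and 0.18 without CD37KO replicate 2. Whether the spread of Egr1 differed between genotypes was not tested.

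Egr2 (Entrez Gene 13654), a relative of Egr1 that restrains lymphocyte activation, is the member with a CArG box in the sequence above. It reached 9.43, 9.37 and 9.79 in WT and 9.42, 9.28 and 9.70 in CD37KO replicates 1 to 3. In both groups replicate 3 stood above the other mice. Its log2 difference was -0.06 (SE 0.14, 95% interval -0.37 to 0.25, limma adjusted p = 0.934), and 0.07 without WT replicate 3. The interval of Egr2 was the widest of the 10.

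Nr4a1 (Entrez Gene 15370) encodes the nuclear receptor NUR77, whose level is used as a readout of recent antigen receptor signals. It was at 12.10, 12.00 and 12.10 in WT and at 12.09, 12.07 and 12.21 in CD37KO replicates 1 to 3. All 6 arrays fell within 0.21 log2 units. The difference of 0.05 on the log2 scale (SE 0.067, 95% interval -0.10 to 0.21, limma adjusted p = 0.879) corresponds to a fold between 0.933 and 1.15. It was 0.0096 without CD37KO replicate 3 and 0.02 without WT replicate 2.

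Ier2 (Entrez Gene 15936), a nuclear protein of the immediate early response, lies 18 measured genes from Junb on chromosome 8. It was at 8.58, 8.47 and 8.81 in WT and at 8.67, 8.72 and 8.73 in CD37KO replicates 1 to 3. Here the WT mice were the more spread, and all CD37KO arrays lay inside their range. Its log2 difference was 0.09 (SE 0.090, 95% interval -0.12 to 0.29, limma adjusted p = 0.857), and it was 0.01 without WT replicate 2 and 0.18 without WT replicate 3.

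Dusp1 (Entrez Gene 19252), which dephosphorylates p38, JNK and ERK, was at 12.06, 11.89 and 12.18 in WT and at 12.14, 11.99 and 12.26 in CD37KO replicates 1 to 3. The groups overlapped, and replicate 2 was the lowest and replicate 3 the highest array of each. The log2 difference was 0.09 (SE 0.096, 95% interval -0.13 to 0.31, limma adjusted p = 0.862). It was 0.01 without WT replicate 2 and 0.02 without CD37KO replicate 3, and 0.15 without WT replicate 3 and 0.16 without CD37KO replicate 2.

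Cd69 (Entrez Gene 12515), the activation marker of the group, was the only one whose groups did not overlap. It stood at 12.03, 12.12 and 12.18 in WT and at 12.03, 12.00 and 11.99 in CD37KO replicates 1 to 3, where the highest CD37KO array and the lowest WT array were 0.0056 apart. Groups without overlap that were lower in CD37KO were found in 7.57% of all genes and in 456 of the 9874 genes above background. The log2 difference of Cd69 was -0.11 (SE 0.064, 95% interval -0.25 to 0.04, limma adjusted p = 0.801), and an exact two-sided permutation test gave p = 0.10, the smallest that 3 arrays against 3 allow. Without single arrays it lay between -0.15 and -0.07, and the groups stayed apart under the 3 other scalings tried.

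**Figure D2:**
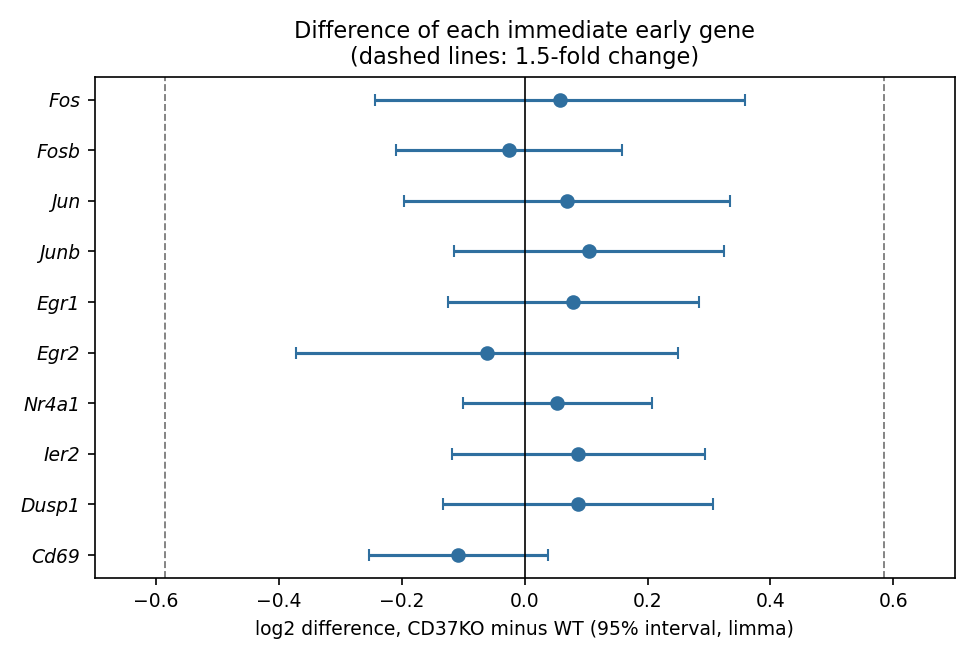
Log2 difference, CD37KO minus WT, of each immediate early gene with its 95% interval from limma (3 arrays in each group); the solid line is no difference and the dashed lines mark a change of 1.5-fold. Each of the 10 intervals includes 0 and lies between the dashed lines.

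The intervals limit how large an undetected change could be. For all 10 genes the 95% interval lay inside a 1.5-fold change in either direction, as it did for 94.8% of the genes above background. The widest, that of Egr2, reached from 0.773-fold to 1.19-fold, and the upper end of Fos was 1.28-fold. The median log2 difference of the 10 genes was 0.06, beside -0.02 over all genes and 0.02 over the genes above background, and it was -0.03 without CD37KO replicate 3.

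Most of the 10 members had a within-group SD above the median of the genes above background, without matching for expression level. With 1 array per mouse, variation between mice and between arrays cannot be told apart. The members share their arrays, so their SDs are not separate observations. Among the genes above background, 31.9% had a larger within-group SD than the median of the 10 members, 0.13 log2 units. The median over these genes was 0.10. The within-group SD of Egr2, 0.22, was at the 91.7th percentile of the genes above background, that of Fos at the 90.6th and that of Jun at the 85.4th. Dusp1 and Junb were each at the 71.4th percentile, Ier2 at the 65.0th and Egr1 at the 63.9th. Fosb was near the middle, at the 49.4th. Nr4a1 and Cd69 varied little, with SDs at percentiles 20.6 and 12.2.

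**Figure D3:**
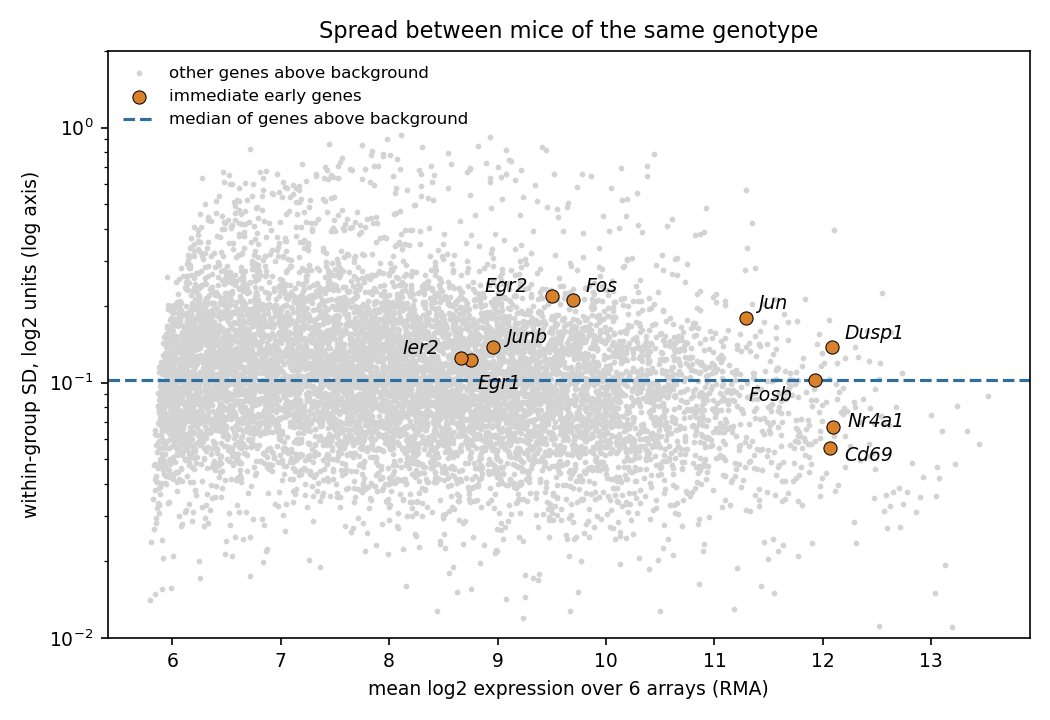
Within-group SD between mice (log axis, log2 units) against mean log2 expression over 6 arrays for genes above background (grey) and the 10 immediate early genes (orange), with the median SD as a dashed line. Egr2, Fos and Jun stand high for their level, and Nr4a1 and Cd69 lie below the line.

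The mice with high levels were the same ones for most members. WT replicate 3 lay above the gene's mean over 6 arrays for 9 of the 10 genes, and so did CD37KO replicate 3, whereas WT replicates 1 and 2 each did so for 1 gene. CD37KO replicate 3 was the highest of all arrays for 6 genes, where 18.8% of the genes above background had it highest, and WT replicate 3 was the highest for the other 4. For all 10 genes it was thus 1 of these 2 arrays, as for 37.1% of the genes above background. The lowest array was WT replicate 2 for 4 genes and CD37KO replicate 2 for another 4. Replicate 2 was the lowest of its group in both genotypes for 6 members, and for 1796 of the 9874 genes above background. The counts of arrays above the mean or lowest of all were not taken over all genes. Averaged over the 10 genes, the deviation from the gene means was -0.05, -0.10 and 0.09 log2 units in WT and -0.02, -0.09 and 0.16 in CD37KO replicates 1 to 3. For 8 genes replicate 3 was the highest of its group in both genotypes, Nr4a1 and Cd69 being the exceptions, while 10.6% of the genes above background had this pattern. Its lead was narrow for Egr1 in WT (8.714, 8.709 and 8.720 in replicates 1 to 3). It was also narrow for Ier2 in CD37KO (8.721 and 8.729 in replicates 2 and 3). The pattern was noticed in these values, and since the members share their arrays they are not separate observations. Under 3 other scalings of the arrays it held for 7 or 8 genes.

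Cd69 departed from the others. In CD37KO replicate 3, where the remaining 9 genes were on average 0.18 log2 units above their means, Cd69 was 0.07 below its own, its lowest array. That array was close to the rest of its group for Cd69. The deviations of Cd69 in CD37KO replicates 1 to 3 were -0.03, -0.06 and -0.07, and its range within CD37KO was 0.04. In WT replicate 3 Cd69 was at its highest, as Fosb, Egr2 and Ier2 were.

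**Figure D4:**
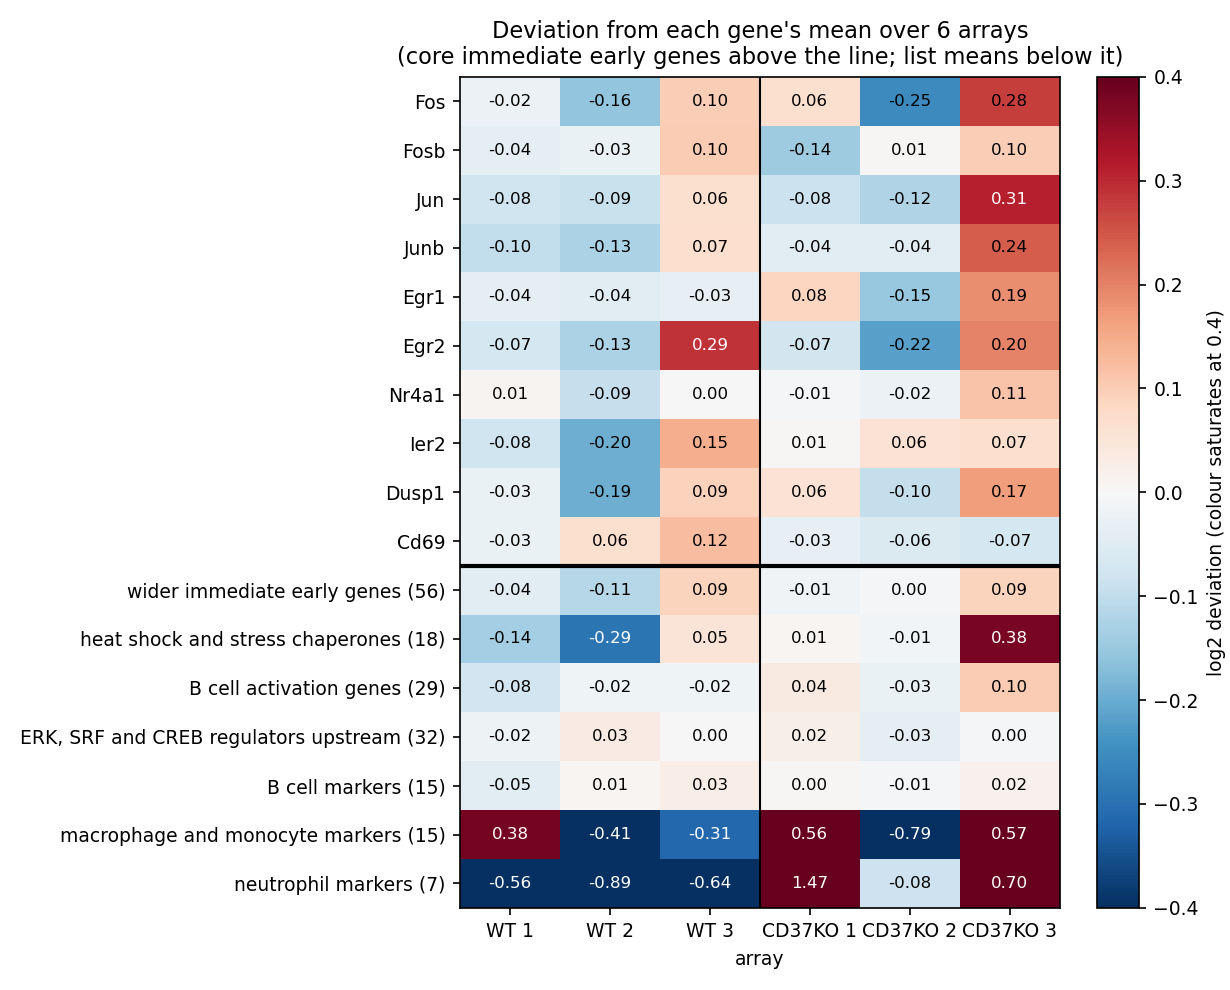
Log2 deviation from the mean over 6 arrays for each immediate early gene (rows above the line) and for the mean of other gene lists (rows below it, with the number of genes above background in all arrays), by array. WT replicate 3 and CD37KO replicate 3 are red for most members, and the macrophage row is low in WT replicate 3 and high in CD37KO replicate 3, at -0.31 and 0.57.

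The genes that followed the members most closely over the 6 arrays were searched among 9864 genes above background. The highest Pearson r with the members' mean deviation belonged to Plscr3 (r = 0.985, Spearman's rho = 1.00), Actr3 (r = 0.984, rho = 1.00), Traf7 (r = 0.981, rho = 1.00), Myl4 (r = 0.980, rho = 0.943) and Rpp38 (r = 0.978, rho = 0.943), over n = 6 arrays. Actr3 encodes a subunit of the ARP2/3 complex that nucleates actin filaments, and Rpp38 a protein of RNase P. Since they were picked as the highest of many, no test is given. Actr3 was at 10.11, 10.04 and 10.24 in WT and at 10.17, 10.07 and 10.36 in CD37KO replicates 1 to 3, and its log2 difference was 0.07 (adjusted p = 0.882 from limma).

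A wider list of 61 immediate early genes, other AP-1 and EGR relatives, phosphatases and feedback regulators, had 56 genes above background in all arrays. None passed an adjusted p under 0.05 from limma. The unadjusted p was under 0.05 for 8 genes, of which 6 lay higher in CD37KO (2.96% of all genes did) and 2 lower (2.99% of all genes did). Of the 9874 genes above background, 504 lay higher and 207 lower at this threshold. The median log2 difference of the list was 0.03, and it was -0.0002 without WT replicate 2. Replicate 3 was the highest of its group in both genotypes for 24 of the 56 genes, beside 10.6% of the genes above background. The pattern was first noticed in the members, which share these arrays, so this count is not a separate observation. The list mean deviated by 0.09 log2 units in both replicate 3 arrays and by -0.11 in WT replicate 2.

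Among the 7 bZIP relatives, Nfil3, a repressor that also acts in the circadian clock, had the largest difference of the wider list. It was at 7.24, 6.91 and 7.43 in WT and at 7.53, 7.60 and 7.61 in CD37KO replicates 1 to 3. Each CD37KO value exceeded each WT value, a pattern found in 4.33% of all genes and in 689 of the 9874 genes above background. The log2 difference was 0.39 (SE 0.12, limma adjusted p = 0.801). Plk3, a stress-responsive polo-like kinase, differed by 0.28, the pseudokinase gene Trib1 by 0.21, Ier5l by 0.19, the ERK phosphatase gene Dusp5 by 0.20 and the stress sensor gene Gadd45g by 0.32 on the log2 scale, each at an adjusted p of 0.801 from limma. Gadd45g and Dusp5 were named after their values were seen.

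The 2 lower genes were Egr3 and Klf6, also named after their values were seen. Egr3, a relative of Egr2 induced through calcium signals, was at 9.91, 9.99 and 10.21 in WT and at 9.60, 9.84 and 9.86 in CD37KO replicates 1 to 3. Its groups did not overlap, and the log2 difference was -0.27 (SE 0.10, limma adjusted p = 0.801), whereas Egr2 differed by -0.06. Klf6, a Krüppel-like factor, differed by -0.14 (SE 0.060, limma adjusted p = 0.801). Of the 6 MAP kinase phosphatases besides Dusp1, 1, Dusp5, lay higher at an unadjusted p under 0.05 (2.96% of all genes did), with a median of 0.09. The 5 NF-kappaB feedback genes had a median of 0.05 and the 5 genes of RNA decay and growth arrest one of -0.02, with none at an unadjusted p under 0.05 in either group.

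**Figure D5:**
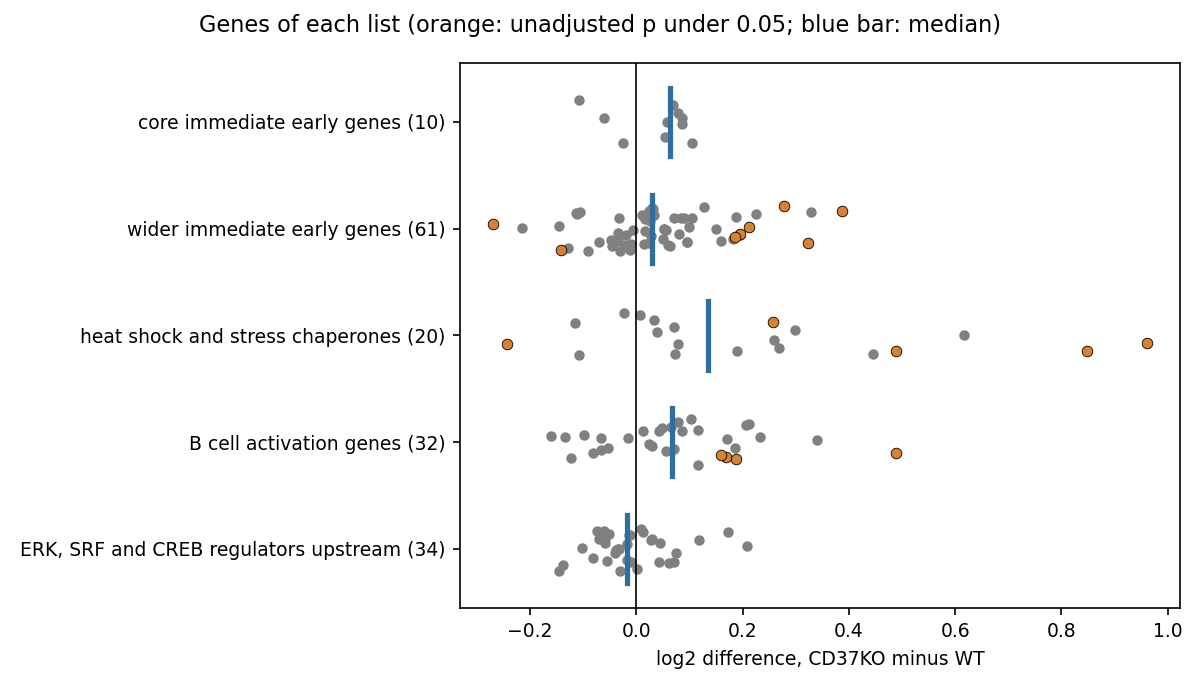
Log2 difference, CD37KO minus WT, of each gene (points) of 5 lists, with the number measured in brackets, the list median as a blue bar and genes at an unadjusted p under 0.05 from limma in orange. No orange point belongs to the core immediate early genes or to the upstream regulators, and the chaperone list spreads furthest to the right.

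Heat shock and stress genes, like immediate early genes, are known to respond to tissue dissociation. Of 22 listed, 20 were measured and 18 were above background, and none passed an adjusted p under 0.05 from limma. The unadjusted p was under 0.05 for 4 genes higher and 1 lower in CD37KO, 25.0% of the list beside 5.95% of all genes. Of the 9874 genes above background, 504 were higher and 207 lower at this threshold. The median log2 difference of the list was 0.13. It was 0.04 without CD37KO replicate 3. Bag3, a co-chaperone of HSP70, was at 6.56, 6.44 and 6.87 in WT and at 7.35, 6.93 and 8.13 in CD37KO replicates 1 to 3. Its log2 difference was 0.85 (SE 0.27, limma adjusted p = 0.801), with no overlap of the groups and CD37KO replicate 3 at the top.

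Hspe1, the co-chaperonin of mitochondria, differed by 0.26, Ddit4, an inhibitor of mTORC1, by 0.49, Hspb1, a small heat shock protein gene, by 0.96 and Txnip, a regulator of thioredoxin and glucose uptake, by -0.24 on the log2 scale, each at an adjusted p of 0.801 from limma. Hspb1 was named after its values were seen, as was Hspa1a, the inducible HSP70 gene. Hspa1a was at 10.87, 10.53 and 11.56 in WT and at 11.14, 11.38 and 12.28 in CD37KO replicates 1 to 3. As with Fos and Jun, the replicate 3 mouse was the highest of each group and CD37KO replicate 3 the highest of all. The list mean deviated by -0.14, -0.29 and 0.05 log2 units in WT and by 0.01, -0.01 and 0.38 in CD37KO. For 11 of the 18 genes replicate 3 was the highest of its group in both genotypes, beside 10.6% of the genes above background. These genes were read on the same arrays as the members, so the count is not a separate observation. The part of handling in the levels of the immediate early genes was not tested.

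Markers of other cells matched the members in some arrays and not in others. The macrophage and monocyte genes deviated by 0.38, -0.41 and -0.31 log2 units in WT and by 0.56, -0.79 and 0.57 in CD37KO replicates 1 to 3. WT replicate 3, high for the immediate early genes, was thus low for them, and the first replicates of both groups were high for them and not for the members, while CD37KO replicate 3 was high and the second replicates of both groups low in both lists. One stress gene, Hmox1, named for this overlap, is also on the macrophage list. The 7 neutrophil genes were lowest in the 3 WT arrays and highest in CD37KO replicate 1, at 1.47, where the 10 members were on average 0.02 below their means. The part of these cells in the members' levels was not tested.

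Of the later activation genes measured, 23 had a difference above 0, with none past the adjusted threshold. Beside them, 5625 of the 9874 genes above background and 8337 of all 19935 genes had a difference above 0. Of 36 listed surface markers, target genes and egress genes, 32 were measured and 29 were above background. None passed an adjusted p under 0.05 from limma. An unadjusted p under 0.05 was found for 4 genes with higher values in CD37KO (2.96% of all genes did so) and 0 with lower values (2.99% of all genes). These were 12.5% of the list beside 5.95% of all genes. At this threshold 504 of the 9874 genes above background were higher and 207 lower. The list had a median log2 difference of 0.07. Il2ra, the alpha chain of the IL-2 receptor, was at 7.14, 7.17 and 7.42 in WT and at 7.43, 7.72 and 8.04 in CD37KO replicates 1 to 3. The groups were separate by a narrow margin, and the log2 difference was 0.49 (SE 0.15, limma adjusted p = 0.801). The other 3 were Bcl2l1, which encodes the survival protein BCL-XL, at 0.17, the NF-kappaB subunit gene Relb at 0.16 and the cyclin gene Ccnd2 at 0.19, each at an adjusted p of 0.801 from limma.

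CD69 protein binds the egress receptor S1PR1 and draws it from the surface. S1pr1 RNA was at 10.16, 10.29 and 10.34 in WT and at 10.15, 10.23 and 9.93 in CD37KO replicates 1 to 3. Its groups overlapped, and the log2 difference was -0.16 (SE 0.092, limma adjusted p = 0.801). Of the 7 egress and positioning genes measured, 2 differences were above 0, beside 5625 of the 9874 genes above background. The median of the 7 was -0.07, with none at an unadjusted p under 0.05. S1pr1 was named after its values were seen.

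The regulators upstream of the immediate early genes gave no difference at the unadjusted threshold. Of 40 listed kinases, exchange factors and transcription factors, 34 were measured and 32 were above background, and 0 passed an unadjusted p under 0.05 from limma in either direction, where 5.95% of all genes did. Their log2 differences ran from -0.15 to 0.21 with a median of -0.02. The smallest unadjusted p belonged to Mapk9, which encodes the kinase JNK2, at a log2 difference of 0.21 (SE 0.096, limma adjusted p = 0.801), followed by Rasgrp1, a RAS exchange factor, at -0.15, the calcium channel gene Itpr3 at -0.14 and the CREB relative Crem at 0.17. The list mean deviated from its average by between -0.0345 and 0.0331 log2 units over the 6 arrays.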

How the data were processed

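Splenic B cell RNA of 6 mice, 3 of each genotype, was hybridised to Affymetrix mouse gene arrays, 1 per mouse. The authors deposited log2 values per probe set. Their processing notes to GEO list RMA (background correction, normalization between arrays and summary of probes) and the build mm8. The software was not given in the sources used here. RMA compresses low signals, and levels of different probe sets are not compared. Of 35361 probe sets, 21780 name 1 gene, 1605 several and 11976 none in the annotation used. Symbols were updated by Entrez Gene ID through the RefSeq gene table of GRCm38.p6, in which 91 IDs were not found, and the brightest probe set per gene was kept. All members have 1 probe set. CD37KO was compared with WT in limma 3.58.1 (R 4.3.3; lmFit, eBayes, two-sided, Benjamini-Hochberg over 19935 genes, threshold 0.05) with no filter, after the fit was tested on simulated data. In that simulation, with 3 arrays against 3, the fit called 8% of log2 changes of 0.25, 70% of 0.5 and 90% of 1. The number of arrays limits the precision.

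Members and gene lists were chosen with earlier results of these data known. Genes named besides the 10 members are Cd37, from each list the 4 genes above background in at least 3 arrays with the smallest unadjusted p, and the 5 genes with the highest r to the members' mean. Gadd45g, Dusp5, Egr3, Klf6, Hspb1, Hspa1a, S1pr1 and Hmox1 and the T cell and NK cell markers fall outside this rule and were named after their values were seen. The sequences are from RefSeq, GRCm38.p6. Alternatives were quantile normalization, median centring, the mean of probe sets, a filter on dim genes, array weights, a fit by ordinary least squares, trended and robust eBayes, a block for the replicate number, fits without each array in turn, other percentiles for background and, chosen after seeing the data, centring on the genes above background.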

Additional observations from a re-analysis of the deposited data

How the results depend on the processing

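No member and no gene of the wider immediate early list passed an adjusted p under 0.05 under the alternatives of scaling (quantile normalization and median centring), probe set, filter, fit, weights, block and left-out array, and the 10 members were above background at the 90th and the 99th percentile too. Of 140 alternative values of the members' log2 differences, 131 kept their sign and 9 reversed it, 7 of these in fits without 1 array. The mean of probe sets, the filter, trended and robust eBayes, ordinary least squares and the block could not change a member's difference. Their values are among the 131, so that count overstates how stable the signs were. With array weights Fosb turned to 0.0047 and Egr2 to 0.039. When arrays were left out singly, the value ran from -0.067 to 0.20 for Fos, from -0.082 to 0.040 for Fosb, from -0.069 to 0.15 for Jun and from -0.18 to 0.069 for Egr2. The count of genes called over the whole table, 11, was 3 with ordinary least squares, 19 with array weights and 4 to 14 when 1 array was left out. The median of the upstream regulators moved from -0.02 to -0.046 with centring on the genes above background, an alternative chosen after seeing the data. The causes were not tested. With the replicate number as a block, 4 genes were called over the whole table and 0 members. Over the genes above background, arrays with the same number had correlations of their deviations from the group means of 0.302, 0.104 and -0.12, and WT replicate 1 correlated best with CD37KO replicate 3 (0.366), so the numbers were not taken as pairs.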
